A study of Mus musculus with 11 samples.

Results

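The 10 genes described here carry iron into the cell, store it, release it and sense it: *Tfrc*, *Trf*, *Steap3*, *Slc11a2*, *Slc25a37*, *Fth1*, *Ftl1*, *Slc40a1*, *Aco1* and *Ireb2*. They were chosen by name for their roles in iron handling, out of 55487 genes in the deposited count files. The choice was made with earlier results of these data known. All 10 were among the 24177 genes with enough counts to be tested. RNA was sequenced from single hearts of mouse embryos at E14.5, 5 *Pde2A*-/- and 6 *Pde2A*+/+, with 1 library per heart. Both groups came from intercrosses of heterozygous mice of the strain B6; 129P2-Pde2A<tm1Dgen>, in which the gene for phosphodiesterase 2A, an enzyme that degrades cAMP and cGMP, is disrupted in the whole embryo. The labels name no treatment for either group. The *Pde2A*-/- hearts are named A, B, 14, D and 15, and the *Pde2A*+/+ hearts 7, 11, 6, 8, H and E.

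Iron travels in blood bound to transferrin, which enters cells through the transferrin receptor. In the endosome iron is reduced by a Steap protein and leaves through the transporter Slc11a2. It is then taken into mitochondria for heme and iron-sulphur clusters, held in ferritin, or exported through ferroportin. The proteins made by *Aco1* and *Ireb2* bind hairpins called iron-responsive elements (IRE) in mRNAs when iron is scarce: a hairpin in the 5′ UTR holds back translation, and hairpins in the 3′ UTR of the receptor mRNA protect it from decay.

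These hairpins are shown with their UTR, because the effect described above differs between the 5′ and the 3′ UTR. A member without a match can still carry a hairpin of another form, so the search does not sort all 10 members by iron sensing. The transcripts of GENCODE M21 (GRCm38) were searched, on the transcribed strand only, for a C, 5 bases, the loop CAGTGN and 5 bases that pair with the 5 before the loop, G-U pairs allowed. Each sequence is given as DNA, 5′ to 3′, with the loop in capitals.
*Fth1*, 5′ UTR, chr19:9982732-9982760, plus strand: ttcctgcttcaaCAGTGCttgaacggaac
*Ftl1*, 5′ UTR, chr7:45459779-45459807, minus strand: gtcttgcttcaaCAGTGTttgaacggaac
*Slc40a1*, 5′ UTR, chr1:45925465-45925493, minus strand: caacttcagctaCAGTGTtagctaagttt
*Tfrc*, 3′ UTR, chr16:32631219-32631247, plus strand: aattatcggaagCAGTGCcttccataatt
*Tfrc*, 3′ UTR, chr16:32631598-32631626, plus strand: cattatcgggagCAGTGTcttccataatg
*Tfrc*, 3′ UTR, chr16:32631663-32631691, plus strand: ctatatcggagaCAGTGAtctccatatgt
*Tfrc*, 3′ UTR, chr16:32631710-32631738, plus strand: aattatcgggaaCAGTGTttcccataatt
Of the 10 members, *Fth1*, *Ftl1* and *Slc40a1* held 1 match each in the 5′ UTR and *Tfrc* held 4 in the 3′ UTR. The other members had no match to these letters in either UTR, which says only that this form of the hairpin is not in the annotated transcripts. Among 21901 protein-coding genes, 0.142% had a match in the 5′ UTR and 0.589% in the 3′ UTR. A match describes the sequence and was not tested for binding.

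Values are CPM, the counts of each heart scaled to a common library size with edgeR's TMM factors, and changes are given on the log2 scale as *Pde2A*-/- over *Pde2A*+/+, with the standard error (SE) of the fit. A heart had 35865537 to 42835382 reads assigned to genes in the sense orientation. *Pde2a* itself had at most 2 counts in any heart, in both genotypes, so it gave no check of the labels. The reason for such low counts in *Pde2A*+/+ hearts was not tested, and they are not read as absence of the transcript. Heart muscle genes were abundant in every library: 14 cardiomyocyte markers of which 4 were lower and 0 higher, together gave 38785 to 44257 CPM in *Pde2A*-/- hearts and 38398 to 51890 CPM in *Pde2A*+/+ hearts. Hepatocyte markers stood apart in 4 libraries, *Pde2A*-/- D and *Pde2A*+/+ 11, H and E, which had more than 10 CPM of *Alb*, while this gene was near 0 in the other hearts. Changes of the members and of the other iron genes named are therefore also given without these 4 hearts where their call was lost, from 4 *Pde2A*-/- and 3 *Pde2A*+/+ hearts.

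In *Pde2A*-/- hearts 5 of the 10 genes were higher, *Slc25a37*, *Slc40a1*, *Trf*, *Fth1* and *Ftl1*, and 0 were lower, by the quasi-likelihood test of edgeR, adjusted after Benjamini and Hochberg over all genes tested. Of all genes tested, 8.93% were higher and 5.67% lower by the same call. At an unadjusted p under 0.05 the members counted 6 higher and 0 lower, where 7368 of all 24177 genes were under it in either direction. DESeq2 gave the same counts of members, the sixth gene being *Tfrc*, and called 16.4% of the genes it adjusted higher and 13.8% lower. The median log2 change of the 10 was 0.29, against -0.02 over all genes tested. Without the 4 hearts rich in *Alb*, 3 were higher (*Slc25a37*, *Slc40a1* and *Trf*) and 0 lower. Over all genes that fit called 482 higher and 50 lower, against 2160 and 1372 with all hearts.

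**Figure D1:**
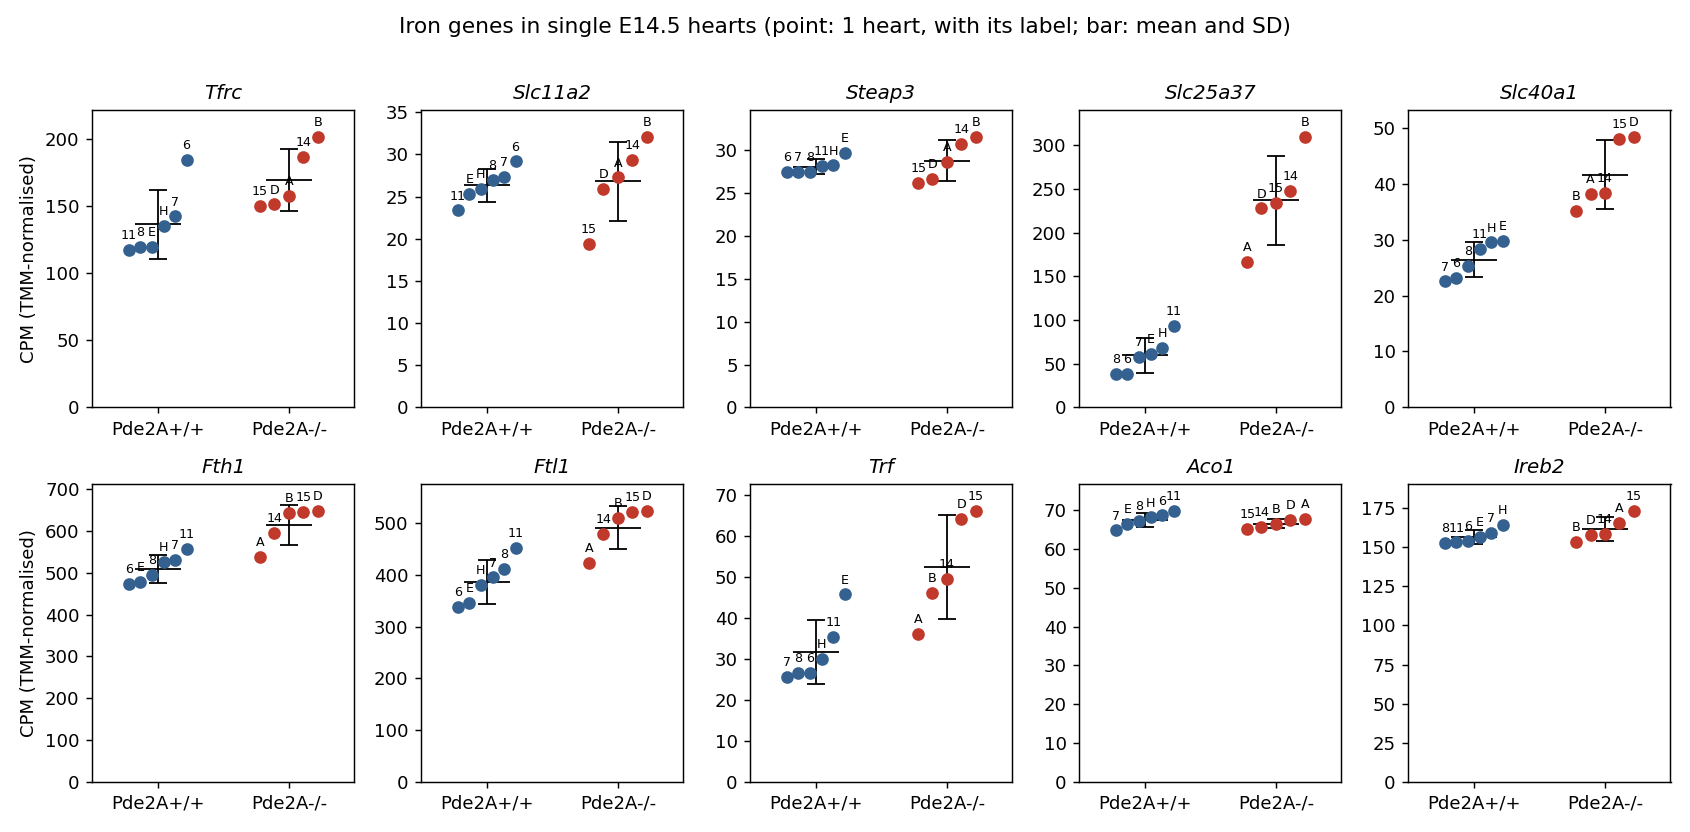
Level of each iron gene in every heart, in TMM-normalised CPM on a linear axis that starts at 0. Each point is 1 heart with its label, blue for *Pde2A*+/+ (n = 6) and red for *Pde2A*-/- (n = 5), and the bars give the mean and SD; the genotypes are apart for *Slc25a37* and *Slc40a1* and overlap for the other 8 genes.

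*Slc25a37* changed most. It encodes mitoferrin 1, which brings iron into mitochondria and is known for its high expression in red cell precursors. It had 166 CPM in *Pde2A*-/- heart A, 309 in B, 248 in 14, 228 in D and 234 in 15, and in *Pde2A*+/+ hearts a lowest value of 38.1, a median of 59.1 and a highest of 93.2. Every *Pde2A*-/- heart was above every *Pde2A*+/+ heart, and the lowest of them, heart A, was above heart 11, the highest control. The means were 237 ± 51.1 (SD, n = 5) and 59.4 ± 20.6 CPM (SD, n = 6), a 3.99-fold difference (log2 change 1.996, SE 0.22, edgeR adjusted p = 7.4e-05). It was the 1 member past a 2-fold limit, where 2.21% of all genes tested passed it in this direction and 0.372% in the other. Leaving out any single heart kept the log2 change between 1.88 and 2.17, and without the 4 hearts rich in *Alb* it was 2.42 (edgeR adjusted p = 0.0013). In whole hearts, more cells of a type and more RNA per cell cannot be told apart.

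Part of the markers of red cell precursors moved with *Slc25a37*. The markers were planned as a single list of which 19 genes had an identifier, and the sum of this list overlapped between the genotypes. It ran from 6191 to 9665 CPM in *Pde2A*-/- and from 4723 to 16383 CPM in *Pde2A*+/+ hearts. The split into globins and other markers was not in the plan. All 12 such markers other than globins were higher, among them *Klf1* (log2 change 4.10, SE 0.32), a transcription factor of the erythroid lineage, and *Slc4a1* (2.81, SE 0.30), the anion exchanger of the red cell membrane. Their summed level ran from 616 to 1185 CPM in *Pde2A*-/- hearts and from 143 to 282 CPM in *Pde2A*+/+ hearts, without overlap, and it was lowest in heart A and highest in heart B, as *Slc25a37* was. The 7 globin genes did not move in this way: 0 were higher and 1, *Hbb-bt*, was lower by the same test, and their sums overlapped, from 5574 to 8748 and from 4580 to 16101 CPM. *Alas2*, the first enzyme of heme synthesis in red cell precursors, had a mean of 124 ± 25.7 CPM (SD, n = 5) against 189 ± 103 CPM (SD, n = 6) and did not pass the test (log2 change -0.60, SE 0.32, edgeR adjusted p = 0.22). The part of red cell precursors in the *Slc25a37* result was not tested.

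**Figure D2:**
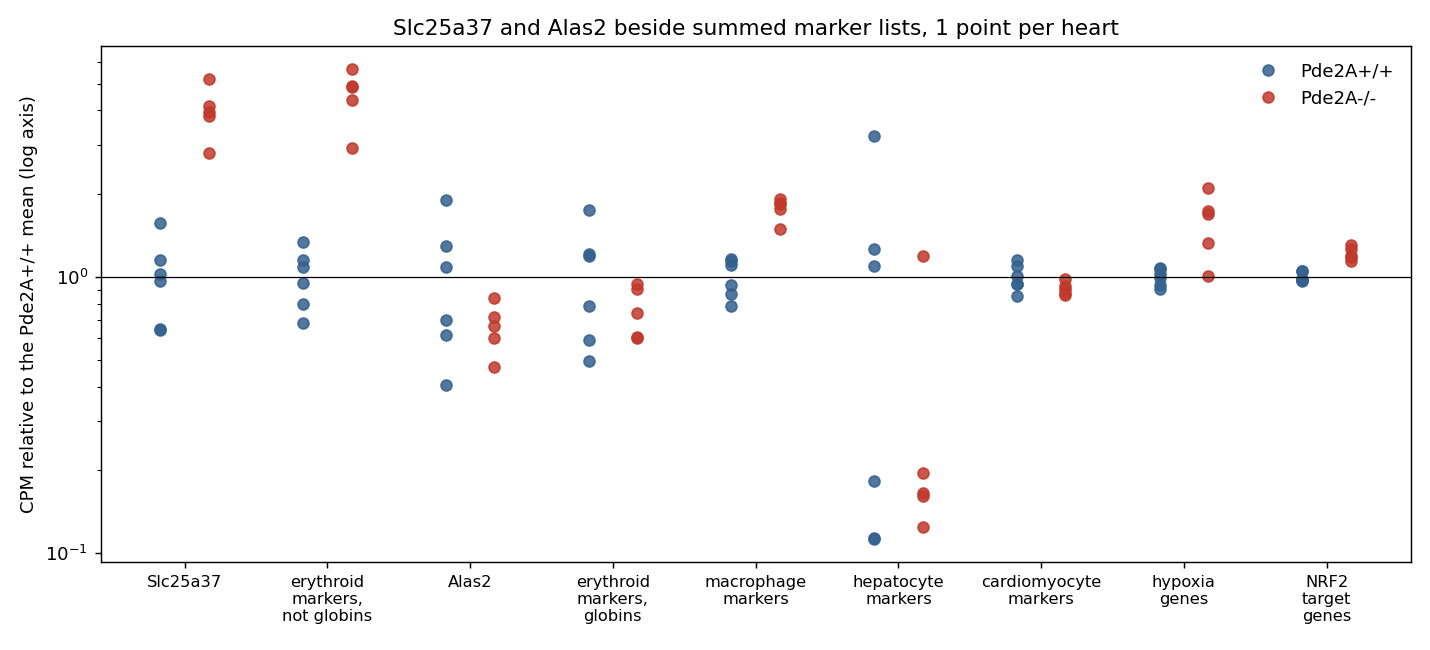
*Slc25a37*, *Alas2* and summed marker lists in each heart, as a fold of the *Pde2A*+/+ mean on a log axis. Each point is 1 heart, blue for *Pde2A*+/+ (n = 6) and red for *Pde2A*-/- (n = 5); *Slc25a37*, the erythroid markers without globins, the macrophage markers and the NRF2 target genes do not overlap between the genotypes, while *Alas2*, the globins, the hepatocyte and the cardiomyocyte markers do.

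The related carrier *Slc25a28*, mitoferrin 2, which serves mitochondria of other tissues, moved the other way. Its level was 16.5 ± 1.19 CPM (SD, n = 5) in *Pde2A*-/- and 19.1 ± 0.786 CPM (SD, n = 6) in *Pde2A*+/+ hearts (log2 change -0.21, SE 0.06, edgeR adjusted p = 0.033), a call that was lost in 8 of the 11 fits that left out 1 heart, all but those without *Pde2A*-/- A or B or *Pde2A*+/+ 6. Without the 4 hearts rich in *Alb* its log2 change was -0.13 (edgeR adjusted p = 0.38). The log2 ratio of *Slc25a37* to *Slc25a28* was 3.81 ± 0.38 (SD, n = 5) against 1.56 ± 0.45 (SD, n = 6), a difference of 2.25. An exact permutation test, two-sided over 462 splits of the hearts, gave p = 0.0043, the smallest it can give here, and 0.013 after adjustment over the 3 gene pairs compared. This p follows from the separation of *Slc25a37* alone, beside which *Slc25a28* varied little, so it adds nothing on *Slc25a28*.

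*Slc40a1*, which encodes ferroportin, the exporter of iron from the cell, was the other member whose genotypes did not overlap. It had 38.2 CPM in heart A, 35.1 in B, 38.3 in 14, 48.4 in D and 48.0 in 15, and in *Pde2A*+/+ hearts between 22.5 and 29.8 with a median of 26.8. Hearts D and 15 were the highest, and every *Pde2A*-/- heart lay above every control. The means were 41.6 ± 6.15 (SD, n = 5) and 26.4 ± 3.19 CPM (SD, n = 6), a 1.57-fold difference (log2 change 0.65, SE 0.10, edgeR adjusted p = 0.0014), and 0.75 without the 4 hearts rich in *Alb* (edgeR adjusted p = 0.011). Of all genes tested, 5.38% had every *Pde2A*-/- heart above every control and 3.11% every one below, where the members had 2 and 0. Ferroportin is also known for its high level in macrophages that recycle red cells. Of 17 macrophage markers 14 were higher, among them *Csf1r*, the receptor for a macrophage growth factor (log2 change 0.65, SE 0.12), and *Mrc1*, the mannose receptor (0.97, SE 0.14), and their sum was 334 to 428 CPM in *Pde2A*-/- and 176 to 261 CPM in *Pde2A*+/+ hearts. The part of macrophages in the *Slc40a1* result was not tested.

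The heavy and light chains of ferritin, the shell in which cells keep iron, rose by similar, small amounts. *Fth1*, the heavy chain, had 538 CPM in heart A, 644 in B, 595 in 14, 648 in D and 647 in 15, and in *Pde2A*+/+ hearts between 474 and 558 with a median of 510.0. *Ftl1*, the light chain, had 423, 511, 479, 523 and 521 CPM in the same hearts, and between 339 and 453 in *Pde2A*+/+ hearts with a median of 388. For both genes 4 of the 5 *Pde2A*-/- hearts were above every control and heart A was not. The log2 change was 0.27 (SE 0.06, edgeR adjusted p = 0.014) for *Fth1* and 0.34 (SE 0.08, edgeR adjusted p = 0.014) for *Ftl1*, which are rises of 20.5% and 26.9%. Without the 4 hearts rich in *Alb* the sizes stayed close, 0.28 and 0.34, and the calls were lost (edgeR adjusted p = 0.11 for each).

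The balance of the chains differed little between the genotypes. The log2 ratio of *Fth1* to *Ftl1* was 0.32 ± 0.02 (SD, n = 5) in *Pde2A*-/- and 0.40 ± 0.09 (SD, n = 6) in *Pde2A*+/+ hearts, and the difference of -0.08 did not pass the exact permutation test (two-sided p = 0.091, 0.136 adjusted over the 3 pairs). Ferritin genes have many processed copies in the genome: 50.9% of the 50-base stretches of *Ftl1* transcripts, and 1.59% of those of *Fth1*, are also found in other genes. Reads placed at more than 1 position are not in these counts, and they made up 10.9% to 11.6% of reads in *Pde2A*-/- and 11.6% to 13.2% in *Pde2A*+/+ hearts. The copies of *Ftl1* themselves had 489 counts over the 11 hearts, against 184482 for *Ftl1*.

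*Trf*, the transferrin gene, known as a product of liver and of some other tissues, was higher with a wide spread. It had 36.2 CPM in heart A, 46.1 in B, 49.6 in 14, 64.3 in D and 66.1 in 15, and in *Pde2A*+/+ hearts a lowest value of 25.6, a median of 28.3 and a highest of 45.8, in heart E. Heart A lay inside the range of the controls and the other 4 lay above it. The means were 52.5 ± 12.6 (SD, n = 5) and 31.6 ± 7.82 CPM (SD, n = 6), a 1.66-fold difference (log2 change 0.73, SE 0.18, edgeR adjusted p = 0.017). The call was lost without heart D (edgeR adjusted p = 0.056) or heart 15 (0.051).

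Hepatocyte markers did not rise with *Trf*. Of 12 such markers 0 were higher and 0 lower by edgeR's test, 0 and 4 at an unadjusted p under 0.05, and 0 in either direction by DESeq2. Their sum was 4.82 to 46.0 CPM in *Pde2A*-/- and 4.39 to 126 CPM in *Pde2A*+/+ hearts, where it was highest in heart E, the control highest in *Trf*. Without the 4 hearts rich in *Alb*, the log2 change of *Trf* was 0.92 (edgeR adjusted p = 0.031). The annotation places *Gm20425* over 63.5% of the exon bases of *Trf* on the same strand, and a read on both genes is counted for neither, so the *Trf* values rest on the other 1212 exon bases.

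*Tfrc*, the transferrin receptor, did not pass edgeR's test. It had 157 CPM in heart A, 201 in B, 186 in 14, 151 in D and 149.98 in 15, and in *Pde2A*+/+ hearts between 117 and 184 with a median of 127. The 5 *Pde2A*-/- hearts lay above 5 of the 6 controls, and the remaining control, heart 6, lay above 3 of them. The means were 169 ± 23.3 (SD, n = 5) and 136 ± 25.7 CPM (SD, n = 6), with a log2 change of 0.31 (SE 0.12, edgeR adjusted p = 0.095). By DESeq2 the adjusted p was 0.047, and without heart 6 the log2 change was 0.42 (edgeR adjusted p = 0.016). The hairpins shown above lie in this mRNA, which is also known to be abundant in red cell precursors. Markers of these cells other than globins rose as given above, while the globins and *Alas2* did not. The part of the hairpins or of these cells in the *Tfrc* values was not tested.

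The endosomal steps after the receptor showed no detectable difference. *Steap3*, the endosomal ferrireductase, had 28.7 CPM in heart A, 31.6 in B, 30.8 in 14, 26.7 in D and 26.2 in 15, around a *Pde2A*+/+ range of 27.5 to 29.7. *Slc11a2*, the transporter that lets iron out of the endosome, had 27.3, 32.1, 29.3, 25.9 and 19.4 CPM in these hearts, around a *Pde2A*+/+ range of 23.4 to 29.2. In both genes *Pde2A*-/- hearts lay above and below the controls, with heart B highest and heart 15 lowest. The log2 change was 0.04 (SE 0.06, interval of 2 SE from -0.08 to 0.15, edgeR adjusted p = 0.73) for *Steap3* and 0.03 (SE 0.10, interval of 2 SE from -0.18 to 0.23, edgeR adjusted p = 0.90) for *Slc11a2*. The sign of the *Slc11a2* value turned in some fits that left out hearts.

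The iron sensors were the steadiest of the 10. *Aco1*, which encodes cytosolic aconitase, a protein that becomes iron regulatory protein 1 when it loses its iron-sulphur cluster, had between 65.1 and 67.8 CPM in *Pde2A*-/- and between 64.8 and 69.8 CPM in *Pde2A*+/+ hearts. *Ireb2*, which encodes iron regulatory protein 2, had between 154 and 173 CPM and between 153 and 164 CPM. The *Pde2A*-/- range of *Aco1* lay inside that of the controls, while for *Ireb2* hearts A and 15 lay above every control. The coefficient of variation within a genotype was at most 2.60% for *Aco1* and 4.73% for *Ireb2*, against 34.6% for *Slc25a37* in *Pde2A*+/+ hearts. The log2 change was -0.02 (SE 0.04, interval of 2 SE from -0.09 to 0.05, edgeR adjusted p = 0.76) for *Aco1* and 0.05 (SE 0.04, interval of 2 SE from -0.04 to 0.13, edgeR adjusted p = 0.51) for *Ireb2*. Their log2 ratio differed by -0.07 between the genotypes, which did not pass the exact permutation test (two-sided p = 0.17, and 0.17 adjusted over the 3 pairs).

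**Figure D3:**
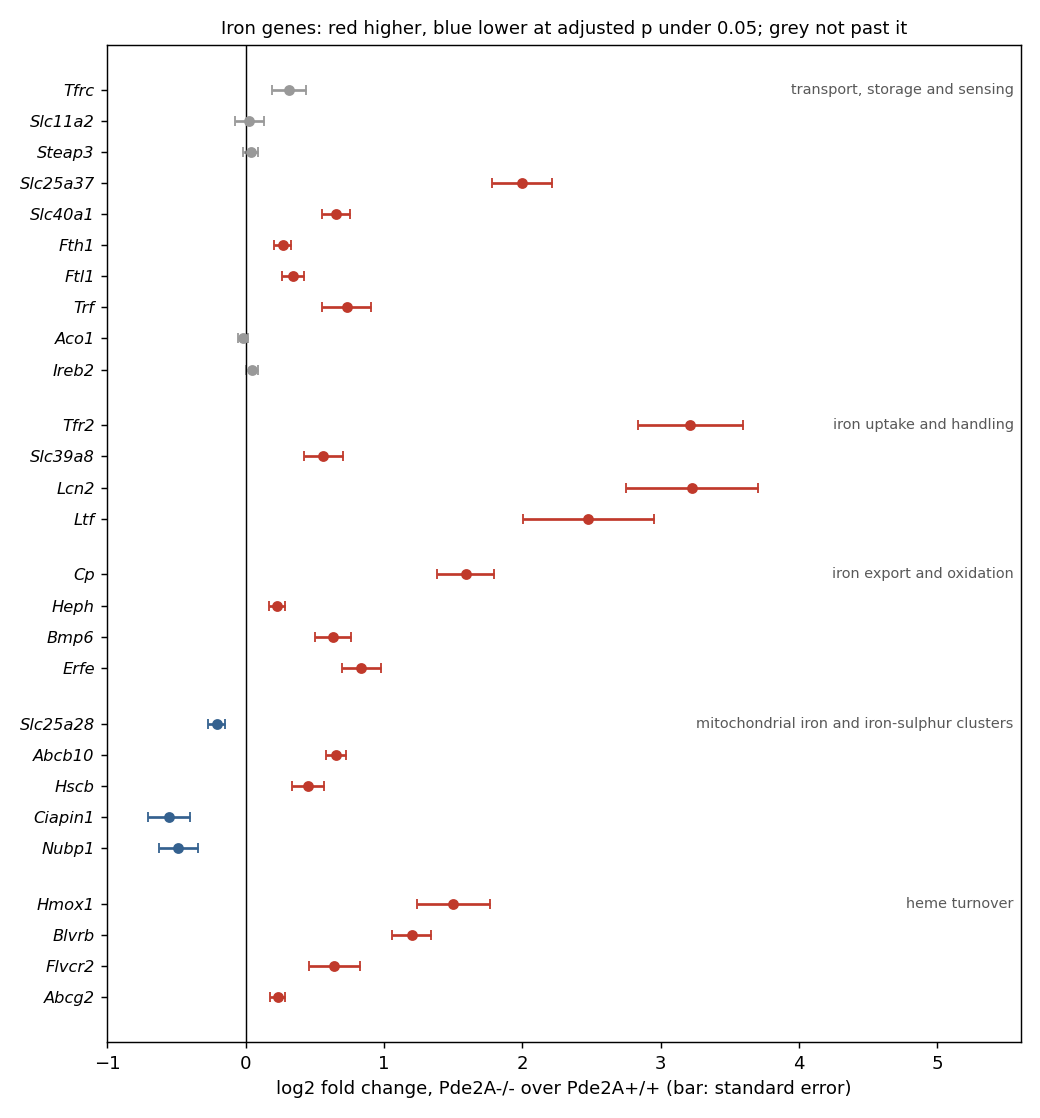
Log2 fold change of the 10 iron genes and of the named genes of the iron pathway lists, *Pde2A*-/- over *Pde2A*+/+, with the standard error of edgeR's fit as the bar. Red and blue mark genes higher and lower at an adjusted p under 0.05 and grey those not past it; *Slc25a37* at 1.996 stands apart from the other members, which lie between -0.02 and 0.73.

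The members differed widely in level. Per kilobase of exon not shared with another gene on the same strand, the *Pde2A*+/+ mean was 315 CPM for *Ftl1* and 147 CPM for *Fth1*, above the other members. *Trf* followed with 26.1, *Tfrc* with 22.02, *Ireb2* with 16.5, *Aco1* with 15.01, *Slc25a37* with 9.87, *Steap3* with 4.92, *Slc11a2* with 4.15 and *Slc40a1* with 2.94 CPM per kilobase. The ranges over hearts overlapped between *Trf* and *Tfrc* and between *Aco1* and *Slc25a37*, so the order within these pairs is not settled. Exon length here joins the exons of all annotated transcripts of a gene, such as 9000 bases for *Slc40a1* and 9479 for *Ireb2*. The order below the ferritin chains therefore also depends on the annotation, and the last place of *Slc40a1* is not settled. The order of the ferritin chains is not settled either, because the exon length of *Fth1* includes a transcript with a retained intron and *Ftl1* loses reads to its copies. In *Pde2A*-/- hearts *Slc25a37* stood at 39.4 CPM per kilobase, next to *Trf* at 43.3.

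The wider pathway was described with 77 genes in 6 lists, written with earlier results of these data known. Of these 77 genes 74 were tested: 18 were higher, 5 lower and 51 did not pass. These are 24.3% and 6.76% of the genes tested, beside 8.93% and 5.67% of all genes. The count of lower genes ranged from 1 to 9 when 1 heart was left out, with 9 without *Pde2A*-/- heart B and 1 without *Pde2A*-/- heart 14, D or 15 or *Pde2A*+/+ heart 8. Without the 4 hearts rich in *Alb*, 8 were higher and 0 lower by edgeR's test, where 482 of all genes were higher and 50 lower in the same fit.

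**Figure D4:**
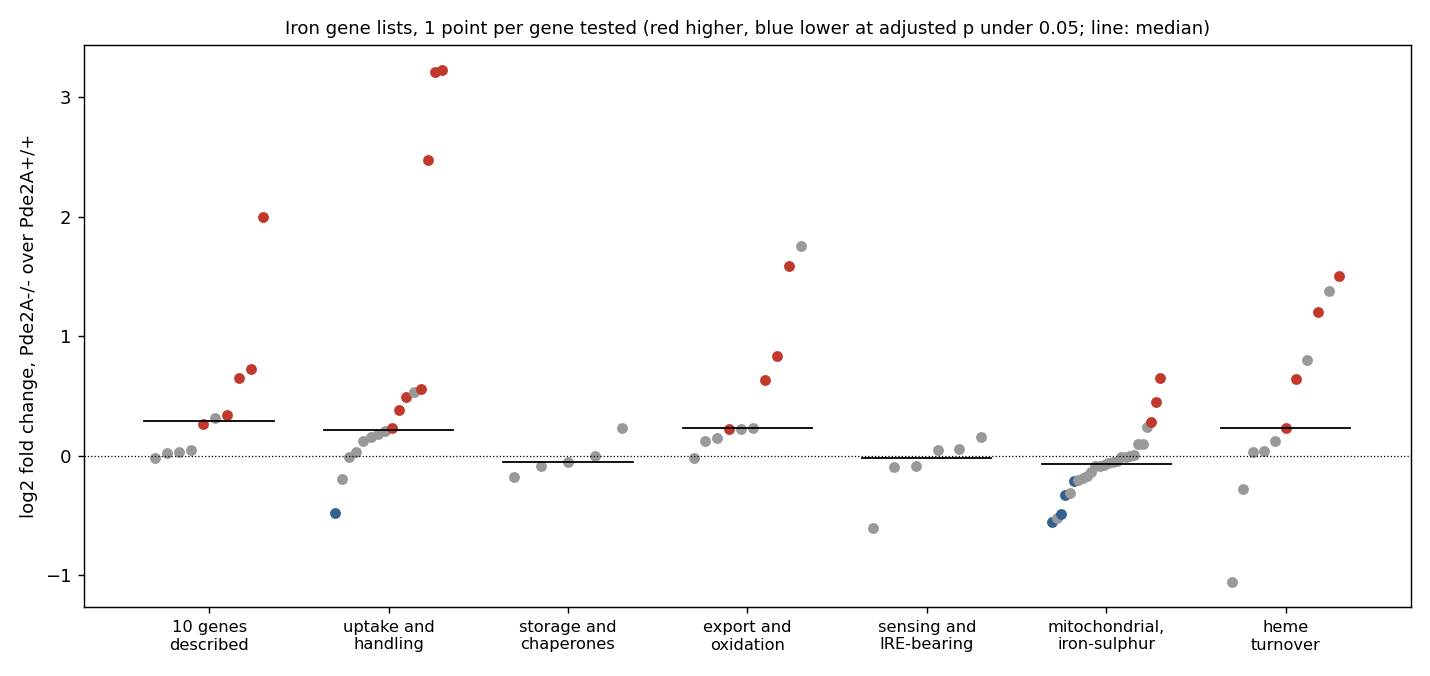
Log2 fold change of every tested gene of the 10 members and the 6 iron pathway lists, 1 point per gene, with the median of each list as a line. Red and blue points are higher and lower in *Pde2A*-/- hearts at an edgeR adjusted p under 0.05; the storage and the sensing lists hold grey points only, and 4 of the 5 lower genes are in the mitochondrial list.

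Of the 16 tested genes of iron uptake and handling, 7 were higher and 1 lower, with a median log2 change of 0.22. *Tfr2*, a second transferrin receptor found in liver and red cell precursors, had 2.06 to 4.95 CPM in *Pde2A*-/- and 0.183 to 0.808 CPM in *Pde2A*+/+ hearts (log2 change 3.21, SE 0.38, edgeR adjusted p = 1.4e-04). *Lcn2* and *Ltf*, whose products are iron-binding proteins of neutrophil granules, had log2 changes of 3.23 (SE 0.48) and 2.47 (SE 0.47), and none of their *Pde2A*-/- hearts overlapped with a control. Without the 4 hearts rich in *Alb* the call of *Ltf* was lost (log2 change 2.28, edgeR adjusted p = 0.097). All these levels were low: the *Pde2A*-/- means were 3.90 CPM for *Tfr2*, 2.17 for *Lcn2* and 4.10 for *Ltf*. *Slc39a8*, a metal importer at the cell surface, rose by 0.56 (SE 0.14, edgeR adjusted p = 0.020) with overlapping genotypes. Its call was lost without *Pde2A*-/- heart 14 (edgeR adjusted p = 0.058), D (0.056) or 15 (0.060), and without the 4 hearts rich in *Alb* (0.20). The gene that was lower was *Slc46a1* (log2 change -0.48, SE 0.14, edgeR adjusted p = 0.041), a carrier of folate and heme, named because it was the only lower gene. Without the 4 hearts rich in *Alb* its call was lost, as 0 genes of the iron lists were then lower. With 1 heart left out, this list had 0 to 1 lower genes.

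In the list of iron export and oxidation 4 of 10 genes were higher and 0 lower by edgeR's test, with 0 lower also by DESeq2 and at an unadjusted p under 0.05, and a median log2 change of 0.23. *Cp*, ceruloplasmin, which oxidises iron as ferroportin releases it, rose 3.01-fold, from 1.98 ± 0.505 (SD, n = 6) to 5.95 ± 1.63 CPM (SD, n = 5) (log2 change 1.59, SE 0.21, edgeR adjusted p = 3.3e-04), and every *Pde2A*-/- heart was above every control. *Heph*, the related membrane ferroxidase, rose by 0.23 (SE 0.06, edgeR adjusted p = 0.026). Its call was lost in 6 of the 11 fits that left out 1 heart, those without *Pde2A*-/- D or 15 or *Pde2A*+/+ 7, 6, 8 or H, and without the 4 hearts rich in *Alb* (edgeR adjusted p = 0.13). This list held 6 tested genes that act on hepcidin, the hormone that removes ferroportin, and 2 of them rose. They were *Bmp6*, which induces it, by 0.63 (SE 0.13, edgeR adjusted p = 0.0082), and *Erfe*, made by red cell precursors to hold it back, by 0.83 (SE 0.14, edgeR adjusted p = 0.0023). *Hjv*, *Tmprss6*, *Neo1* and *Furin* did not pass, and *Bmp6* lost its call without the 4 hearts rich in *Alb* (edgeR adjusted p = 0.13). Of all genes tested, 8.93% were higher. Regulators of hepcidin counted in the uptake list, such as *Tfr2* with its rise given above, are not among these 6. The hepcidin gene *Hamp* had a mean of 0.0507 CPM in *Pde2A*-/- and 0.0132 CPM in *Pde2A*+/+ hearts, too low to compare, and *Hamp2* was not tested.

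Among 26 genes of mitochondrial iron and iron-sulphur clusters 3 were higher, 4 lower and 19 did not pass, with a median log2 change of -0.07. *Abcb10*, an inner membrane transporter known to stabilise mitoferrin 1, was the most changed of the higher ones, at 98.4 ± 11.1 (SD, n = 5) against 62.6 ± 3.78 CPM (SD, n = 6) (log2 change 0.65, SE 0.07, edgeR adjusted p = 6.7e-05), and its genotypes did not overlap. *Hscb*, a co-chaperone of cluster assembly, rose by 0.45 (SE 0.12, edgeR adjusted p = 0.023). The genes that were lower included *Ciapin1* (log2 change -0.55, SE 0.15, edgeR adjusted p = 0.031) and *Nubp1* (-0.49, SE 0.14, edgeR adjusted p = 0.035), both of the cytosolic assembly of clusters. Both were lowest in heart 15 and next lowest in heart D. The calls of *Hscb*, *Ciapin1* and *Nubp1* were lost in 4, 5 and 7 of the 11 fits that left out 1 heart, each time including those without *Pde2A*-/- 14, D or 15 and *Pde2A*+/+ 6. They were also lost without the 4 hearts rich in *Alb* (edgeR adjusted p = 0.17, 0.17 and 0.16).

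In the list of heme turnover 4 of 11 genes were higher and 0 lower by edgeR's test, with 1 lower by DESeq2 and 1 at an unadjusted p under 0.05, and a median log2 change of 0.23. *Hmox1*, heme oxygenase 1, which opens the heme ring and frees its iron, had 33.5 CPM in heart A, 38.3 in B, 62.3 in 14, 96.2 in D and 108 in 15, and between 21.2 and 31.1 CPM in *Pde2A*+/+ hearts. All *Pde2A*-/- hearts were above the controls and were spread widely, with hearts D and 15 highest (log2 change 1.502, SE 0.27, edgeR adjusted p = 0.0034). *Blvrb*, a biliverdin reductase abundant in red cells, rose 2.30-fold (log2 change 1.199, SE 0.14, edgeR adjusted p = 1.6e-04). *Flvcr2* and *Abcg2*, which code for transport proteins of the cell membrane, rose by 0.64 (SE 0.18, edgeR adjusted p = 0.034) and 0.23 (SE 0.05, edgeR adjusted p = 0.014). The constitutive heme oxygenase, *Hmox2*, had a log2 change of 0.04 (SE 0.04). The call of *Flvcr2* was lost in 8 of the 11 fits that left out 1 heart, all but those without *Pde2A*-/- A or B or *Pde2A*+/+ E. Without the 4 hearts rich in *Alb* the calls of *Hmox1* (log2 change 1.28, edgeR adjusted p = 0.13), *Flvcr2* (0.66, adjusted p = 0.23) and *Abcg2* (0.23, adjusted p = 0.13) were lost.

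The lists of storage and of sensing held no called gene. For 5 tested genes of iron chaperones and ferritin release, edgeR's test called 0 in either direction, with 1 higher and 1 lower at an unadjusted p under 0.05 and 0 higher and 1 lower by DESeq2. *Ncoa4*, the receptor that delivers ferritin for breakdown, had 54.5 ± 3.90 CPM (SD, n = 5) against 46.2 ± 6.78 CPM (SD, n = 6) (log2 change 0.24, SE 0.09, edgeR adjusted p = 0.097). For the 6 genes of iron sensing and further IRE-bearing mRNAs the counts were 0 and 0 by edgeR, by DESeq2 and at an unadjusted p under 0.05. *Fbxl5*, which marks the product of *Ireb2* for breakdown when iron is plentiful, had a log2 change of -0.08 (SE 0.05).

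In the sensing list the search found the hairpin in the 5′ UTR of *Alas2*, as in the ferritin chains.
*Alas2*, 5′ UTR, chrX:150547458-150552149, plus strand, across an intron: ttggttcgtcctCAGTGCagggcaacagg
Set beside their hairpins, these genes with a match in the 5′ UTR had log2 changes of 0.65 (*Slc40a1*), 0.34 (*Ftl1*), 0.27 (*Fth1*) and -0.60 (*Alas2*). The last did not pass the test and lay on the other side of 0.

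Other values moved with the members and are given beside them. Genes of the response to hypoxia, to which *Tfrc*, *Trf* and *Hmox1* are also known to respond, were higher for 12 of 13, with a sum of 3334 to 6922 CPM in *Pde2A*-/- and 2990 to 3560 CPM in *Pde2A*+/+ hearts. This sum overlapped with the controls in heart A alone, the heart that was lowest in *Trf*, *Fth1*, *Ftl1*, *Hmox1* and *Slc25a37*. Heart A was not low in the hypoxia genes only. It was also the lowest *Pde2A*-/- heart in the sums of the macrophage markers, the NRF2 target genes and the erythroid markers. It was not the lowest in the hepatocyte or cardiomyocyte markers. Targets of NRF2, a transcription factor of the oxidative stress response that also acts on ferritin genes, *Slc40a1* and *Hmox1*, were higher for 5 of 11, with a sum of 337 to 384 against 286 to 311 CPM. *Gclm*, a subunit of the enzyme that starts glutathione synthesis, rose by 0.74 (SE 0.08, edgeR adjusted p = 4.9e-05). The part of either programme in the iron genes was not tested.

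Within the *Pde2A*-/- group the members followed more than 1 order of hearts. *Tfrc*, *Slc11a2* and *Steap3* were highest in heart B and lowest in heart 15, whereas *Trf*, with *Hmox1* and *Bmp6* beside it, was lowest in heart A and highest in heart 15. *Fth1* and *Ftl1* ran together and were lowest in heart A and highest in heart D. These orders rest on 5 hearts, were noticed after the values were seen, and are given as a description.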

How the data were processed

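Stranded poly(A) libraries, 1 per heart, were read single-end on an Illumina NextSeq instrument. STAR was run by the authors against GRCm38 (mm10), and the deposited values are its counts per gene, as whole numbers without normalization. The STAR version and annotation release are not given in the sources used here, nor are litter, batch or the sex of single hearts. Counts of the sense strand were used, and 19.6% to 22.4% of reads per heart were on no gene, on several genes or mapped to several places or none. Genotypes were taken from the labels. Whether hearts of a genotype shared a litter is not stated. The p-values weigh the genotype difference against the spread between these hearts, and may be too small if hearts of a genotype shared litters.

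The 24177 genes with 10 counts or more, summed over all 11 hearts, were tested with edgeR 4.0.16 in R 4.3.3 (TMM, quasi-likelihood test, Benjamini-Hochberg adjustment, called at an adjusted p under 0.05). Log2 levels for ratios used a prior count of 2. The common biological coefficient of variation was 16.8%. On simulated counts of 23664 genes this call found 100 of 110 genes given a log2 change of 1 and 90 of 90 given a log2 change of 2, with 8 wrong calls. DESeq2 1.42.0, its size factors, filterByExpr, no filter beyond 1 count, both strands, erythroid markers left out, the style of heart names as covariate, a 2-fold limit and each heart left out in turn were the alternatives. Leaving out the 4 hearts above 10 CPM of *Alb* was added after seeing the data. Positions, exon lengths and UTRs are from GENCODE M21 on GRCm38, which matched 55227 of 55487 identifiers.

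The members and the hand-written lists were chosen with earlier results of these data known. Beside the 10 members and *Slc25a28*, up to 4 genes per iron list with an adjusted p under 0.05, a mean of at least 1 CPM and the largest log2 change were named. *Slc46a1*, *Hamp*, *Hjv*, *Tmprss6*, *Neo1*, *Furin*, *Hmox2*, *Ncoa4*, *Fbxl5*, *Alas2* and the single marker genes were named after their values were seen. List counts cover 2 genes whose own values are not reported here.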

Additional observations from a re-analysis of the deposited data

Results flagged for a closer look

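Among the 27 named iron genes, 54 groups of hearts were examined for a heart far from the rest of its genotype by Dixon's criterion, which chance meets in about 1 of 20 groups, and 7 met it. *Tfrc* was highest in *Pde2A*+/+ heart 6, at 184 CPM. *Steap3* was highest in *Pde2A*+/+ heart E, at 29.7 CPM, where the other controls lay close together. *Cp* and *Hmox1* were both highest among controls in heart 8, at 2.93 and 31.1 CPM. *Erfe* was lowest in *Pde2A*+/+ heart H, at 1.24 CPM. *Lcn2* was highest in *Pde2A*-/- heart D, at 3.80 CPM, and *Blvrb* lowest in *Pde2A*-/- heart A, at 35.7 CPM. Of these genes, *Tfrc* was the one whose call changed when the heart in question was left out.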

How the results depend on the processing

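All 27 named iron genes kept their side of the threshold under DESeq2's size factors, filterByExpr, both strands, erythroid markers left out and the style of heart names as covariate. DESeq2 added *Tfrc*, and without a filter *Slc25a28* was lost (edgeR adjusted p = 0.051). The count of higher members was 5, and became 3 without the 4 hearts rich in *Alb* and 1 at a 2-fold limit, with 4 to 6 when 1 heart was left out. For the pathway lists the 18 higher genes became 8 and 6 in these alternatives and 13 to 21 with 1 heart left out. Their 5 lower genes became 9 with DESeq2, 8 with filterByExpr, 3 without a filter, 0 without the hearts rich in *Alb*, 0 at a 2-fold limit and 1 to 9 with 1 heart left out. Over all genes 2160 were higher and 1372 lower. These became 482 and 50 without the hearts rich in *Alb*, which leaves 4 against 3 hearts, and 535 and 90 at a 2-fold limit. With 1 heart left out they ranged from 1288 to 2887 and from 414 to 2165, and DESeq2 called 2354 lower. *Slc11a2* had a log2 change of -0.043 without the hearts rich in *Alb* and between -0.047 and 0.12 with 1 heart left out. Without the hearts rich in *Alb*, 13 of the 27 genes lost their call. That fit also has fewer hearts, and the cause of the losses was not tested. No paired analysis was possible because the genotypes share no replicate number.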
